A study of Mus musculus with 6 samples.

Results

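The low- and high-affinity receptors for the Fc part of immunoglobulin G and the chain through which the activating ones signal were followed in macrophages exposed to cartilage fragments. The 5 genes are Fcgr1, Fcgr3 and Fcgr4, the activating ligand-binding chains, Fcgr2b, the inhibitory receptor, and Fcer1g, the common gamma chain. They were taken by symbol from 24394 gene symbols in the expression files, and all 5 were among the 10393 genes tested. Bone marrow-derived macrophages (BMMs) were grown for 7 days in 50 ng/ml of M-CSF from marrow cells of C57BL/6 mice at postnatal day 28, after a kit for monocytes. Control BMMs (3 libraries) received nothing further, and stimulated BMMs (3 libraries) were kept for 24 h with 5 cartilage fragments per macrophage, the cartilage coming from the same mice as the marrow. The sources give no other allele or agent, and both groups shared the M-CSF. No source used here says that the 3 libraries of a group came from separate mice, so p-values measure only the spread between these libraries, which may be technical.

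Fc gamma receptors bind immune complexes and opsonised particles and are best known in macrophages for driving phagocytosis. Fcgr1 has high affinity for IgG, whereas Fcgr3, Fcgr4 and Fcgr2b bind complexed IgG with lower affinity. The activating chains need Fcer1g at the cell surface and signal through its immunoreceptor tyrosine-based activation motif (ITAM), which Src family kinases phosphorylate and the kinase Syk then binds. Fcgr2b signals without Fcer1g through an inhibitory motif (ITIM) in its own tail, which recruits the phosphatase SHIP1 (Inpp5d), and the level of activating receptors relative to Fcgr2b is known to set the threshold of the response to immune complexes.

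The 2 opposed motifs are shown as the bases that encode them, because they separate the members by role. The sequences are those of the GENCODE M21 annotation of GRCm38, the same assembly as mm10, written in the sense of the gene with the tyrosine codons in capitals. The ITAM of Fcer1g runs over exons 4 and 5 of Fcer1g-201 (minus strand, chr1:171229889-171230072, intron included in the span), and the ITIM of Fcgr2b lies in exon 7 of Fcgr2b-202 (minus strand, chr1:170961071-170961088).
Fcer1g ITAM: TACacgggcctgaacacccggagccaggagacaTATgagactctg
Fcgr2b ITIM: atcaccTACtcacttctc
The ITAM was searched in all reading frames annotated for the members as 2 tyrosine codons, each with a leucine or isoleucine codon 3 codons on, separated by 6 to 8 codons. It matched once, in Fcer1g, and in none of the 4 receptors. The ITIM pattern is short and also matched 3 times in Fcgr1, once in Fcgr4 and once in Fcer1g, so a match alone is no site.

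Of the receptors, 3 lie in 1 cluster with Fcer1g on chromosome 1. On mm10, as the files give it, Fcgr2b (NM_010187) lies at chr1:170960559-170976071, Fcgr4 (NM_144559) at chr1:171018926-171029761, Fcgr3 (NM_010188) at chr1:171051169-171059403 and Fcer1g (NM_010185) at chr1:171229572-171234349. Fcgr4 is on the plus strand and the other members are on the minus strand. From Fcgr2b to Fcgr3 the cluster spans 98.8 kb, and to Fcer1g 274 kb. Fcgr1 (NM_010186) lies apart at chr3:96282909-96293969.

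Fcgr3 and Fcgr2b, which act in opposite directions, carry nearly the same extracellular sequence. Exon 4 of either gene, which codes for part of the IgG-binding region, is given here with the bases that differ in capitals, for Fcgr3-201 at chr1:171053939-171054193 and for Fcgr2b-202 at chr1:170966446-170966700 (GRCm38, both minus strand).
Fcgr3 exon 4: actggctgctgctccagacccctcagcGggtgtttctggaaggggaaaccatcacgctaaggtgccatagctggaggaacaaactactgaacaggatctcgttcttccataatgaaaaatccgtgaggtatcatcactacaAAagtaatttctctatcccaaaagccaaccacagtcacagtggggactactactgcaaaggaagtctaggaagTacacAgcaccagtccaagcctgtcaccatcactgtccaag
Fcgr2b exon 4: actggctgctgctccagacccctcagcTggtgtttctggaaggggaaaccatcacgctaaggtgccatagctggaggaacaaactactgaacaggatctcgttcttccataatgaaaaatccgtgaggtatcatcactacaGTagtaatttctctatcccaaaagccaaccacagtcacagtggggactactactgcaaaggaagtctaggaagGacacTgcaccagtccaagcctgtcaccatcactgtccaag
Of 255 bases 5 differed (98% identity). Against exon 4 of Fcgr4 the identity was 56.5% for Fcgr3 and 55.7% for Fcgr2b. The longest stretch shared between the transcripts of Fcgr3 and Fcgr2b was 129 bases, longer than the 100-base reads. Of the 100-base windows of the Fcgr3 transcript, 44 of 1248 (3.53%) were also present in Fcgr2b. A read inside this stretch cannot be given to Fcgr3 or Fcgr2b on its own, and the values of both carry that limit. No such window was shared with Fcgr4, Fcgr1 or Fcer1g.

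The 6 libraries were shallow in the deposited values. The values are FPKM, fragments scaled to transcript length and library depth, and the coverage listed beside them gave between 699237 and 776371 fragments per library. The paper reports a far larger number of mapped reads per sample, and the reason for the gap was not tested. All fragment counts and Poisson intervals given here rest on the estimate from the coverage. Macrophage markers were present in every library, 9 of 9 in number, with a summed level between 33628 and 43405 FPKM in control and between 33772 and 44121 FPKM in stimulated BMMs. Of them, Adgre1 and Cd14 passed the test as higher (limma, adjusted p = 0.00965 and 0.0388). Ctss was lower with no overlap of the groups (log2 fold change -0.15) and did not pass (adjusted p = 0.131 by limma). In fragments scaled to the library Ctss passed as lower (limma, adjusted p = 0.00153), and Adgre1, Cd14 and Itgam passed as higher. Neutrophil markers, from cells that also carry Fc receptors, summed to 877 to 1023 FPKM in control and 834 to 1187 FPKM in stimulated BMMs. Of these, 9 of 10 were in the files and above 0 in some library, though not all of them in every library, and none of the 7 tested passed. Markers of T and NK cells (6 of 7 at 0 in all libraries, sum at most 0.578 FPKM) and mast cells (Fcer1a, Kit and Cma1 at 0, sum at most 5.48 FPKM) were near the floor. The B cell markers Ms4a1, Pax5 and Cd79a were at 0, and the sum was at most 6.54 FPKM. Chondrocyte markers summed to at most 4.22 FPKM, with Matn1 and Col9a1 at 0, and among dendritic cell markers Flt3 was at 0 and the sum, mostly Itgax, was 72.2 to 90.2 FPKM in control and 67.2 to 78.2 FPKM in stimulated BMMs. In such bulk RNA, fewer cells of a type and less RNA per cell cannot be told apart.

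BMMs expressed the gamma chain most, then Fcgr3, Fcgr2b, Fcgr4 and Fcgr1, in that order in every library and with no overlap between neighbours. By mean FPKM over the 6 libraries Fcer1g ranked 55 and Fcgr3 ranked 92 among all tested genes, followed by Fcgr2b at rank 318, Fcgr4 at rank 1680 and Fcgr1 at rank 5640. Among the activating chains Fcgr3 made up 92.6% to 93.9% of the summed FPKM of a library, Fcgr4 4.91% to 6.26% and Fcgr1 0.615% to 1.62%.

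**Figure D1:**
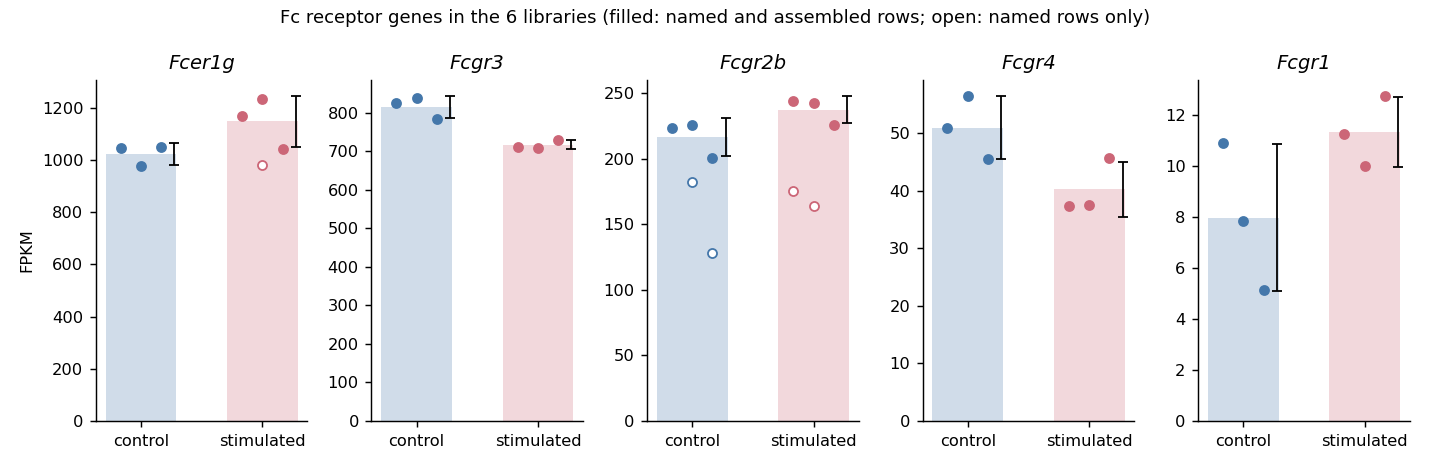
FPKM of each Fc receptor gene in the 3 control (blue) and 3 stimulated (red) libraries, with bars for the group mean and error bars of 1 SD (n = 3); filled points sum the transcripts named for the gene and those assembled at it, and open points show the named transcripts alone where the sums differ. Only for Fcgr3 do all stimulated points lie under all control points.

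No Fc receptor gene passed the test between stimulated and control BMMs. The test was limma on log2 of FPKM with 0.1 added, two-sided, with Benjamini-Hochberg adjustment over all 10393 genes and a threshold of 0.05. By this test 32 genes were higher (0.308% of those tested) and 6 lower (0.0577%) in stimulated BMMs, and 955 had an unadjusted p under 0.05. The 3 stimulated libraries lay above all controls in 9.04% of the tested genes and below all controls in 6.89%. The median log2 fold change of all tested genes was 0.0037.

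Fcgr3, the most abundant activating receptor, was the member with the smallest error. It measured 825, 837 and 783 FPKM in the control libraries and 712, 708 and 730 FPKM in the stimulated libraries. Every stimulated library was thus under every control library, and the means were 815 ± 28.4 and 717 ± 11.6 FPKM (SD, n = 3), a difference of -12.0%. The log2 fold change was -0.18 (SE 0.050, 95% interval -0.30 to -0.07), with an unadjusted p = 0.00591 and an adjusted p = 0.252 by limma. Fcgr3 rested on 2099 estimated fragments over the control libraries and on 1758 over the stimulated ones. In fragments scaled to the library the log2 fold change was -0.19 with adjusted p = 0.0618, again short of the threshold, in a fit that called 145 genes higher (1.4%) and 79 lower (0.76%). The groups stayed apart and the value stayed negative under all 27 other settings tried, with adjusted p between 0.0515 and 0.720. Most of these settings could not have changed that. Leaving out a library, or changing pseudocount, filter, moderation, weights or block, cannot make separate groups overlap or turn the sign. Fcgr3 had no assembled transcript, so the choice of transcripts summed left its values the same. Only a change of scaling or unit could have altered the order. The study, which used Cuffdiff rather than limma, lists Fcgr3 among its lower genes at an adjusted threshold of 0.05. That choice was made on these same libraries and so is no independent evidence.

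Fcgr4, an activating receptor that also needs Fcer1g, was at 51.0, 56.5 and 45.5 FPKM in control and 37.4, 37.6 and 45.7 FPKM in stimulated BMMs. The groups met in a single place, where stimulated library 3 lay just over control library 3. The means were 51.0 ± 5.50 and 40.2 ± 4.75 FPKM (SD, n = 3), and the log2 fold change was -0.34 (SE 0.15, 95% interval -0.68 to -0.0013, adjusted p = 0.542 by limma). The values stood on 119 fragments in the control libraries together (exact Poisson 95% interval 98.6 to 142) and on 89 in the stimulated libraries (71.5 to 110), intervals that cover counting error only and overlap.

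Fcgr1, the high-affinity receptor, had the lowest level and the widest spread. It was listed at 10.9, 7.85 and 5.13 FPKM in control and at 11.3, 9.98 and 12.7 FPKM in stimulated BMMs, and the groups overlapped. The means were 7.96 ± 2.89 and 11.3 ± 1.38 FPKM (SD, n = 3). The log2 fold change of 0.56 (SE 0.29, 95% interval -0.12 to 1.24, adjusted p = 0.616 by limma) was within the spread of the replicates and rested on 9 to 21 fragments per library. It moved between 0.28 without control library 3 and 0.82 without control library 1, so single control libraries set its size. The control total was 43 fragments (31.1 to 57.9) and the stimulated total 58 (44.0 to 75.0).

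Fcgr2b, the inhibitory receptor, had overlapping groups. It measured 224, 226 and 200.4 FPKM in control and 244, 243 and 226 FPKM in stimulated BMMs. Stimulated library 3 fell just under control library 2, and the other stimulated libraries were above all controls. The means were 217 ± 14.2 and 238 ± 10.5 FPKM (SD, n = 3), and the log2 fold change was 0.13 (SE 0.080, 95% interval -0.05 to 0.32, adjusted p = 0.664 by limma). Without control library 3 it was 0.08.

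Fcer1g, the signalling chain, measured 1046, 975 and 1050 FPKM in control and 1168, 1234 and 1042 FPKM in stimulated BMMs. Of the stimulated libraries 1 lay inside the control range and the others above it. The means were 1024 ± 42.2 and 1148 ± 97.3 FPKM (SD, n = 3), with a log2 fold change of 0.16 (SE 0.069, 95% interval 0.0035 to 0.32, adjusted p = 0.535 by limma). The value for stimulated library 2 included 252 FPKM of an unnamed transcript assembled at the gene in that library alone. With named transcripts only that library was at 982 FPKM and the log2 fold change was 0.05, and after quantile normalization of all libraries it was 0.07.

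**Figure D2:**
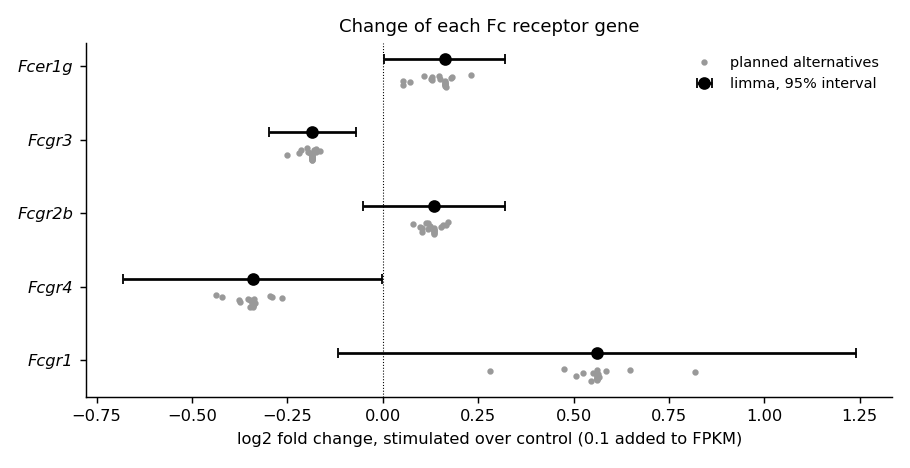
Log2 fold change of each member, stimulated over control, as the limma estimate with its 95% interval (black) and under 19 or 20 other settings (grey). All grey points stay on the side of 0 of their own gene, and no member passes the adjusted threshold under any setting.

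The fragments of Fcgr2b were assigned to different transcripts in different libraries. All of its named FPKM was on NM_010187, the b2 form, while NM_001077189, the b1 form, was listed at 0 in all 6 libraries. The b1 form carries an extra coding exon in the cytoplasmic part that is known to hinder uptake of the receptor, and b2 is the form known from macrophages. The exon has 141 bases and is exon 6 of Fcgr2b-201 (GRCm38, minus strand, chr1:170963325-170963465), shown with no base marked, since its absence or presence is what sets b2 and b1 apart.
Fcgr2b b1 exon 6: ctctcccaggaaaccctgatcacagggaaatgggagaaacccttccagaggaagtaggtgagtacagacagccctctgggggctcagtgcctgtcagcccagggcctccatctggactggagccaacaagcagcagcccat
Cufflinks gave both the b1 and the b2 row the status OK in control library 1 and stimulated library 3 and a low-data status in the other 4. The 0 of b1 may thus be a failed estimate there and sets no upper limit. The b2 values of those 4 libraries, on which the Fcgr2b level largely rests, are uncertain as well.

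Transcripts with no name that Cufflinks assembled under the gene ID of Fcgr2b took 43.6 and 72.1 FPKM in control libraries 2 and 3 and 69.1 and 78.6 FPKM in stimulated libraries 1 and 2, and none in the other libraries. They were 2217 to 2297 bases long against 1405 for the named b2 form, and reached further downstream, to between chr1:170959667 and chr1:170959747. With the named transcripts alone Fcgr2b read 224, 183 and 128 FPKM in control and 175, 164 and 226 FPKM in stimulated BMMs. These groups overlapped widely (178 ± 47.8 and 188 ± 32.7 FPKM, SD, n = 3), and libraries with an assembled transcript were the low ones in both groups. Further unnamed transcripts lay downstream of the named end in every library, between chr1:170958624 and chr1:170960218. The annotated 3′ UTR of Fcgr2b-201 covers that stretch (chr1:170958617-170961016, 2400 bases), whereas the 3′ UTR of Fcgr2b-202 has 459 bases. Counted together, unnamed transcripts held 17.6%, 37.3% and 54.2% of the fragments at the locus in control and 45.8%, 50.3% and 13.2% in stimulated BMMs. The locus as a whole had 321, 343 and 332 fragments per 1000000 in control and 380, 390 and 307 in stimulated BMMs, so stimulated libraries were both the highest and the lowest.

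**Figure D3:**
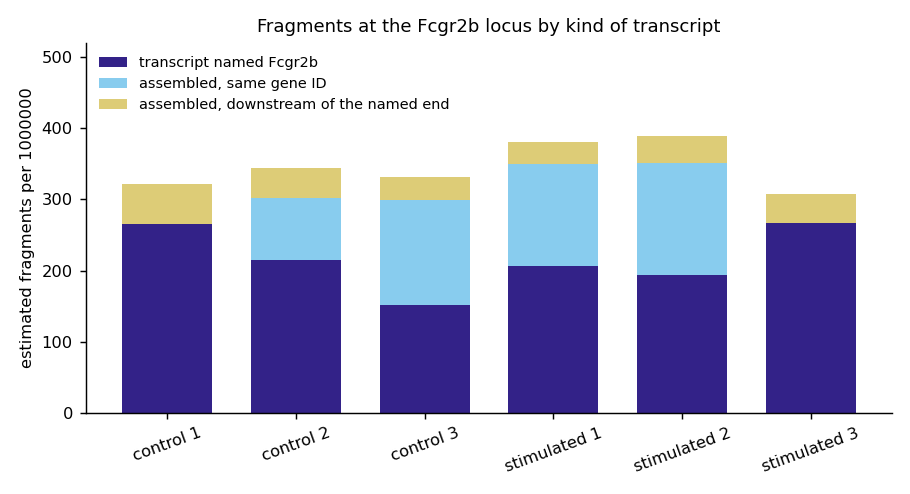
Estimated fragments per 1000000 of the library at the Fcgr2b locus in each library, stacked by transcripts named Fcgr2b, assembled transcripts with the same gene ID and assembled transcripts downstream of the named end. The named part ranges from 152 to 266 fragments per 1000000 and is lowest where an assembled transcript with the same gene ID is present.

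The ratio of activating to inhibitory receptors was formed per library from the summed FPKM of Fcgr1, Fcgr3 and Fcgr4 over that of Fcgr2b, and was given no test, as a score over chosen genes. It was 3.97, 3.99 and 4.16 in control and 3.11, 3.11 and 3.50 in stimulated BMMs, with means of 4.04 ± 0.107 and 3.24 ± 0.221 (SD, n = 3). All stimulated libraries lay below all controls, with a mean difference of -0.32 on the log2 scale. Fcgr3 made up most of the sum, and Fcgr3 alone over Fcgr2b also gave -0.32. Fcgr4 alone over Fcgr2b gave -0.48, whereas Fcgr1 alone went the other way (0.43, groups overlapping). The separation of the summed ratio depended on the transcripts counted for Fcgr2b. The named Fcgr2b transcripts had a low-data status in control libraries 2 and 3 and stimulated libraries 1 and 2, so the ratio is uncertain there. With named transcripts only the ratio was 3.97, 4.94 and 6.50 in control and 4.34, 4.60 and 3.50 in stimulated BMMs, and the groups overlapped through stimulated libraries 1 and 2. In scaled fragments, which are not per length, it was 3.82, 3.38 and 3.17 in control and 2.48, 2.45 and 3.38 in stimulated BMMs, and stimulated library 3 lay within the control range. The mean difference was negative in each of these units.

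Set against the activating chains it serves, Fcer1g lay above the controls in every stimulated library and in each unit tried, while its own values overlapped. Fcgr3 made up 92.6% to 93.9% of the summed activating chains in FPKM. The comparison thus in part restates the lower Fcgr3 values. A gene with no change of its own would also shift upward in such a ratio, so the shift is not particular to Fcer1g. The ratio of Fcer1g to the summed activating chains in FPKM was 1.18, 1.08 and 1.26 in control and 1.54, 1.63 and 1.32 in stimulated BMMs. The means were 1.17 ± 0.0893 and 1.50 ± 0.159 (SD, n = 3), a mean difference of 0.35 on the log2 scale, again with no test. Stimulated library 3 came closest to the controls. With named transcripts only the stimulated libraries were at 1.54, 1.30 and 1.32, still above the controls. The mean log2 difference was then 0.24 for the ratio and 0.05 for Fcer1g itself, so most of it lay in the activating chains. In scaled fragments the ratio was 0.453, 0.413 and 0.487 in control and 0.581, 0.593 and 0.502 in stimulated BMMs, so the groups did not overlap there either.

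**Figure D4:**
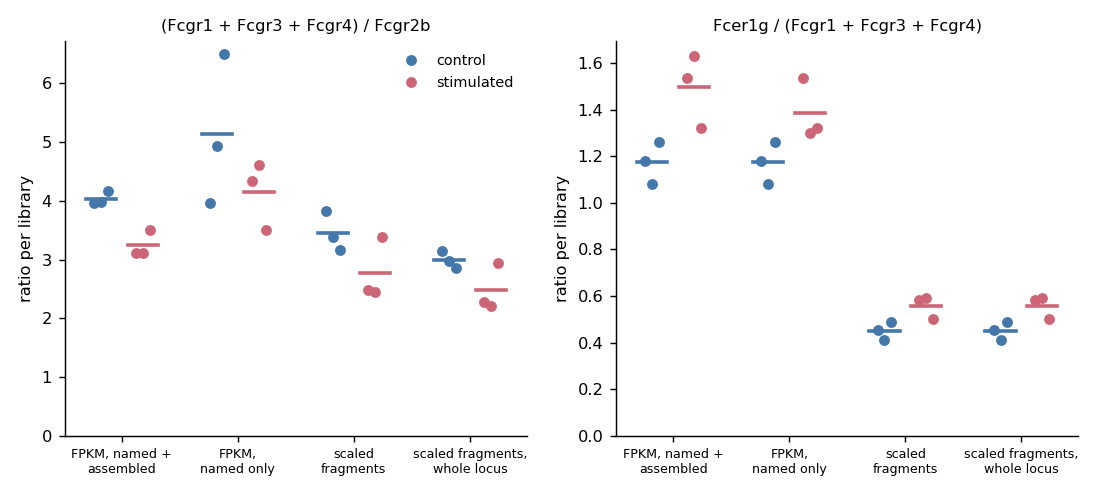
Ratio per library of the summed activating chains to Fcgr2b (left) and of Fcer1g to the summed activating chains (right) in 4 units, control in blue and stimulated in red, with lines for the group means. On the left the groups are apart only in the unit that sums named and assembled FPKM, and on the right they are apart in all 4. The units in scaled fragments hold the same values on the right, since the whole locus changes Fcgr2b alone.

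The genes whose FPKM ran most like each member over the 6 libraries (Pearson r of log2 values, among the 3408 or 3409 other genes averaging 20 FPKM or more) are given as a description, since all share the same libraries and depth. They were Arhgef6 (r = 0.991), Max (0.985) and Dpp8 (0.980) for Fcgr3, and Mcfd2 (0.980), Lrrc27 (0.978) and Sgk1 (0.975) for Fcgr4. For Fcgr1 they were Azin1 (0.985), Reep3 (0.981) and Gosr2 (0.963), for Fcgr2b Rpl38 (0.988), Gnb2l1 (0.982) and Rbm3 (0.979), and for Fcer1g P4hb (0.978) and Elk3 (0.977).

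Around the receptors, 8 lists of partners and downstream genes held 130 genes, of which 123 were in the files and 103 were tested. Of these, 1 passed the test as higher and 0 as lower. The groups were apart upward for 22 and downward for 4, against 9.04% and 6.89% of all tested genes, the shares to hold beside the counts of each list as well. The median log2 fold change was 0.06, against 0.0037 for all tested genes. In scaled fragments 5 list genes passed as higher and 0 as lower, against 1.4% and 0.76% of all tested genes. The lists were chosen with results of these data known, and the study's own changed genes, picked on these libraries, include Fgr, Lcp2, Prkcb, Pirb, Ptpn6, Rac2, Clec4e and Tarm1 among the higher, so their direction here is no independent evidence. Rac2 was not higher here in FPKM (log2 fold change -0.07, groups overlapping), and had 0.31 in scaled fragments.

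Among receptors that pair with Fcer1g, Clec4e rose and was the one list gene that passed. Clec4e (Mincle), a C-type lectin that signals through the ITAM of Fcer1g, measured 22.5, 33.1 and 21.1 FPKM in control and 161, 152 and 106 FPKM in stimulated BMMs, with no overlap. Its log2 fold change was 2.45 (SE 0.22, adjusted p = 0.00411 by limma). It passed in 18 of 20 alternatives, but not without stimulated library 1 (adjusted p = 0.0508) or without trend and robust moderation (0.0676). Tarm1, an activating immunoglobulin-like receptor, measured 13.8, 23.2 and 9.02 FPKM in control and 46.0, 41.0 and 36.5 FPKM in stimulated BMMs, with a log2 fold change of 1.52 (SE 0.32) and adjusted p = 0.123. It passed in scaled fragments (adjusted p = 0.000142) and without control library 2 (0.0417), and its log2 fold change turned to -2.46 where only reference transcripts were summed. The most abundant partners, Clec4d at 1265 to 1652 FPKM and Clec4n (Dectin-2) at 882 to 920 FPKM, differed by 0.06 and -0.01 on the log2 scale. The median of the 8 tested genes was 1.98, and without the 3 listed at 0 in some library (Pira2, Pira11 and Lilra6, near-copies of one another whose values are uncertain) it was 0.55.

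Of the ITAM signalling kinases and adaptors, 27 of 29 were tested, none passed, and the groups were apart upward for 6 and downward for 0, around a median log2 fold change of 0.08. Fgr, a myeloid Src family kinase, measured 31.2, 31.3 and 33.4 FPKM in control and 54.9, 50.9 and 43.8 FPKM in stimulated BMMs (log2 fold change 0.63, SE 0.14, adjusted p = 0.140 by limma, and 1.04 with reference transcripts only). It passed in scaled fragments, at adjusted p = 0.00381. Malt1, the protease downstream of Card9 and Bcl10, and Lcp2, the adaptor SLP-76, had log2 fold changes of 0.65 and 0.55 (adjusted p = 0.423 and 0.484). Syk itself lay between 65.8 and 83.9 FPKM, with overlapping groups (log2 fold change 0.16, adjusted p = 0.720).

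Inhibitory signalling was tested for 18 of 18 genes with none passing, 6 apart upward, 3 apart downward, and a median of 0.12. Inpp5d (SHIP1), the phosphatase that Fcgr2b recruits, lay between 79.1 and 94.1 FPKM with overlapping groups (log2 fold change -0.10, adjusted p = 0.808). Ptpn6 (SHP-1), a phosphatase of other ITIM receptors, measured 118, 126 and 111 FPKM in control and 153, 159 and 147 FPKM in stimulated BMMs (0.37, SE 0.088, adjusted p = 0.186). It lies outside the naming rule, like Inpp5d, Syk, Clec4d, Clec4n and Cbl, and was named with its values known. Pirb and Lilrb4a, inhibitory receptors with near-copies in the genome and so uncertain, had log2 fold changes of 0.67 and 0.64 (adjusted p = 0.267 and 0.248). Cblb, a ubiquitin ligase, and Inpp5e, an inositol phosphatase, had -0.61 and -0.47 (adjusted p = 0.520 and 0.575). The value of Inpp5e was -0.28 without control library 2 and -3.01 with reference transcripts only, neither passing. In scaled fragments Cbl, the ligase related to Cblb, passed as higher (log2 fold change 0.73, adjusted p = 0.0156), against 0.31 and adjusted p = 0.670 in FPKM.

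For the phagocytic cup and actin, 27 of 28 genes were tested, none passed, and 6 were apart upward and 0 downward, around a median of 0.06. The actin-severing protein cofilin (Cfl1) measured 612, 629 and 645 FPKM in control and 732, 713 and 689 FPKM in stimulated BMMs (log2 fold change 0.18, SE 0.052, adjusted p = 0.291 by limma). Its kinase Limk1 had 0.39 (adjusted p = 0.646), and the Arp2/3 subunits Arpc4 and Arpc5 had 0.23 and 0.14 (adjusted p = 0.479 and 0.599), the latter 0.34 with reference transcripts only.

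Of the other Fc receptors, 5 of 13 were tested and none passed, with a median of 0.12. Fcgrt, the neonatal receptor that recycles IgG, lay between 53.0 and 81.2 FPKM with overlapping groups, and Trim21, the receptor for antibody in the cytosol, had a log2 fold change of 0.22 (adjusted p = 0.782) that was 0.07 without control library 1 and turned to -0.31 with reference transcripts only. Fcer1a, the IgE-binding chain that pairs with Fcer1g in mast cells, was listed at 0 in every library. Of the other adaptors 3 of 5 were tested and none passed, with a median of 0.04. Tyrobp (DAP12), the other ITAM adaptor of macrophages, was above Fcer1g in every library, at 3596, 4161 and 3888 FPKM in control and 3814, 4047 and 4100 FPKM in stimulated BMMs (log2 fold change 0.04, adjusted p = 0.855). Hcst (DAP10), which pairs with Tyrobp receptors but carries no ITAM, measured 43.8, 28.8 and 17.1 FPKM in control and 81.2, 54.2 and 80.1 FPKM in stimulated BMMs (1.34, SE 0.33, adjusted p = 0.204). Of the 10 ligands (immunoglobulin chains and pentraxins) 3 were in the files and 0 were tested.

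Of the transcription factors and cytokine receptors known to control Fc receptor genes, 15 of 15 were tested and none passed, with 0 apart upward, 1 apart downward and a median of 0.01. Cebpa, a myeloid factor, measured 197, 199 and 217 FPKM in control and 179, 158 and 184 FPKM in stimulated BMMs (log2 fold change -0.23, SE 0.090, adjusted p = 0.482 by limma). The myeloid factor Spi1 (PU.1) and the interferon factor Irf8 had log2 fold changes of -0.01 and 0.00435, with overlapping groups, and were likewise named with their values known.

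**Figure D5:**
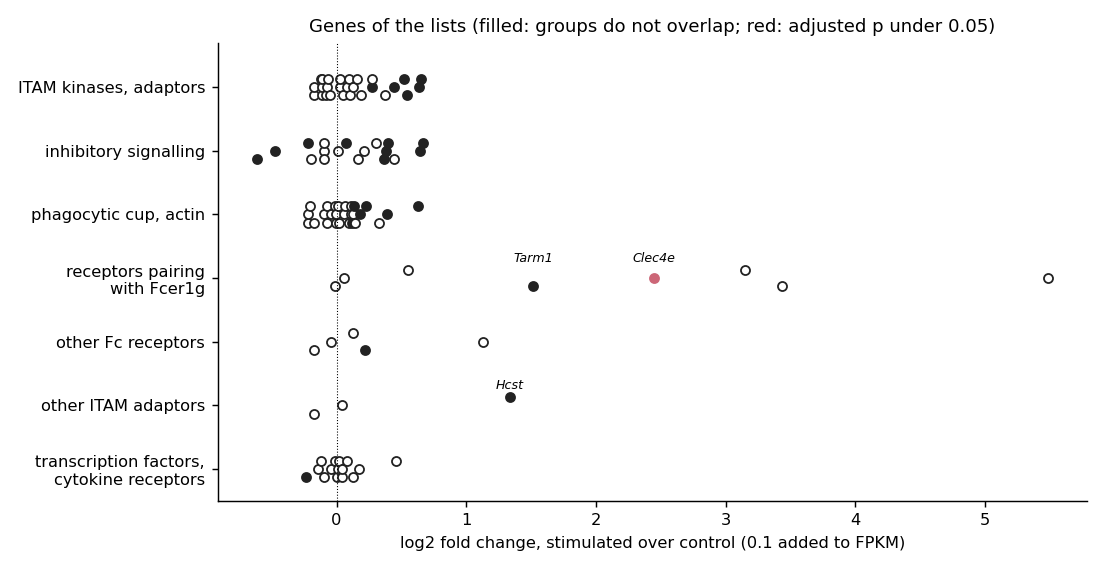
Log2 fold change of each tested gene of the 7 lists with tested genes, stimulated over control; filled points mark genes whose groups do not overlap and the red point the gene that passed the adjusted threshold. Clec4e stands at 2.45 in red, and the open points above 3 are Pira2, Pira11 and Lilra6, each listed at 0 in some library.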

How the data were processed

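The authors sequenced stranded mRNA libraries (paired-end, 100 bp), used TopHat with Bowtie and mm10 for alignment, and estimated abundance with Cufflinks library by library (versions not given in the sources used here). The deposited FPKM are per transcript, for 34535 reference transcripts and 1453 to 1654 assembled per library. Fragments per gene and library were estimated from the deposited coverage, a signal of mean read depth beside each FPKM. FPKM were summed per symbol. Of the unnamed assembled transcripts, 1240 to 1402 per library shared their gene ID with a single symbol and were added to it, and named transcripts alone were an alternative. Genes averaging 1 FPKM or more entered limma 3.58.1 in R 4.3.3 (eBayes with trend and robust) on log2 of FPKM with 0.1 added, Benjamini-Hochberg adjusted, threshold 0.05. The procedure was tested on simulated data. Tables were made in Python 3.11.15 (pandas 2.3.3, numpy 2.4.6), exact intervals with scipy 1.17.1 and figures with matplotlib 3.10.9.

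The members and lists were chosen with earlier results of these data known. Besides the members, the rule named list genes past the threshold and up to 4 more per list with at least 5 FPKM and groups apart, by size of change, and the 3 genes most like each member. Any further gene was named with its values known. Some genes that the rule named are not reported here. The alternatives varied pseudocount, filter, scaling, moderation, weights, replicate block, transcripts summed and unit, or left out 1 library. The replicate numbers recur in both groups, and no source pairs them. Fragments of the whole locus were added after seeing the data.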

Additional observations from a re-analysis of the deposited data

How the results depend on the processing

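The members kept their direction and stayed short of the threshold under all settings tried. For every member another filter, moderation or the replicate block left the log2 fold change as it was. The kept direction under those settings is thus no support for it. Over the 19 or 20 alternatives chosen at the outset the log2 fold change was between -0.25 and -0.16 for Fcgr3, -0.44 and -0.26 for Fcgr4, 0.28 and 0.82 for Fcgr1, 0.08 and 0.17 for Fcgr2b and 0.05 and 0.23 for Fcer1g. With status OK alone Fcgr2b gave no value, and the most abundant transcript was fitted for single genes only. With Fcgr1 alone over Fcgr2b the log2 ratio turned to 0.43, and with Fcgr4 alone it was -0.48. Leaving out each library moved the log2 ratio of activating chains to Fcgr2b between -0.37 and -0.29 and that of Fcer1g to them between 0.28 and 0.43. The count of genes called higher was 13 without trend and robust moderation, 15 with reference transcripts only and 145 in scaled fragments, where 79 were lower. Leaving out each library gave 8 to 27 higher and 0 to 6 lower, with 8 and 0 without stimulated library 1, 14 and 3 without stimulated library 2, 19 and 3 without control library 1, and 3 lower without control library 2 or 3. Of list genes, 0 were called without trend and robust moderation, 5 in scaled fragments and 0 to 2 with each library left out (0 without stimulated library 1, 2 without control library 2), and those lower with groups apart were then 6 to 8. Tarm1 turned to -2.46 with the most abundant transcript and with reference transcripts only, and Trim21 to -0.31 with reference transcripts only. With the most abundant transcript Inpp5e was at -2.05, Lilrb4a at 0.36, Limk1 at 0.62 and Trim21 at 0.03, Cfl1 was at 0.12 after quantile normalization and Trim21 at 0.11 in scaled fragments. The cause was not tested. With the replicate number as a block 17 genes were higher and 1 lower, and no member passed (Fcgr3 adjusted p = 0.425, Fcer1g 0.591, Fcgr4 0.628, Fcgr1 0.648, Fcgr2b 0.657, limma). Same-numbered libraries correlated at -0.079, 0.18 and 0.099 in their deviations, and differently numbered ones between -0.30 and 0.21. With 3 libraries per group these values cannot decide whether the numbers pair the libraries. Fragments of the whole locus, chosen after seeing the data, changed no direction. Depth, as estimated from the deposited coverage, limits Fcgr1, at 9 to 21 fragments per library, and Fcgr4.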
